A study of Rattus norvegicus with 24 samples.

Results

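Pericytes and vascular smooth muscle cells, the mural cells of brain vessels, were described by 9 marker genes: Pdgfrb, Rgs5, Kcnj8, Vtn, Notch3, Acta2, Myh11, Tagln and Cnn1. Each gene was taken from the row of the deposited tables that carries its symbol and a rat Ensembl identifier, which gave 9 of the 32883 reference genes. Frontal cortex of 24 adult male Sprague-Dawley rats was sampled 24 h after inhalation of a tungsten particle aerosol. All 24 sample titles carry the word Repeat, which the labels do not explain. The Control group had 0 mg/m3 (replicates 49 to 56), the Low group 5 mg/m3 (replicates 57 to 64) and the High group 80 mg/m3 (replicates 65 to 72), with 8 rats in each. Poly(A) RNA was sequenced from stranded libraries, and no batch, day or litter is given in the sources used here. The authors deposited 1 gene table per rat, made with StringTie, which builds transcripts from aligned reads and estimates their abundance.

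Pericytes sit on the capillary wall within the basement membrane they share with the endothelium, and depend on PDGF-B that endothelial cells secrete and that their receptor PDGFRB binds. Arteriolar smooth muscle cells encircle larger vessels, contract through smooth muscle actin and myosin, and express the contractile genes in amounts that capillary pericytes largely lack. Both cell types are a small share of cortical tissue, and Notch3 signalling is known to maintain the arteriolar cells.

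In bulk tissue, fewer cells of a type and less RNA per cell cannot be told apart. The measure used was coverage, the mean read depth per base of a gene, divided by the sum over the reference genes of that rat and multiplied by 1000000 (scaled coverage). It is per base, so levels of different genes can be set side by side. In units of 1000000, the summed coverage before scaling ranged from 1.67 to 2.82 among Control libraries, from 1.64 to 3.07 among Low and from 1.77 to 2.67 among High. The tables give no numbers of reads, which leaves the counting error unknown. The Control and High tables hold between 46334 and 66427 newly assembled loci besides the reference genes, except Control replicate 56 with 159573. That replicate had the highest Control value for Pdgfrb, Rgs5, Vtn, Tagln and Notch3. The Low tables hold 0 such loci, so the Low exposure and this kind of table cannot be told apart. Replicates 49 (Control) and 57 (Low) stood apart, with the lowest values of their groups for the 4 members with the longest genes. Over 15644 genes, the rank correlation between a gene's length on the genome and its deviation from the group median was -0.389 in replicate 49 and -0.330 in replicate 57, against -0.210 to 0.228 in the other libraries. The extraction text of the labels speaks of cell lines, while the tissue label and the study's methods say frontal cortex tissue. All 6 markers of cortical excitatory neurons passed the filter described below, with a summed scaled coverage of 387 to 1169 per library.

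The 4 pericyte genes and Notch3 encode a receptor tyrosine kinase for PDGF-B (Pdgfrb, ENSRNOG00000018461, chr18:56364620-56406381, plus strand), a regulator of G protein signalling (Rgs5, ENSRNOG00000002730, chr13:87966758-88003035, plus strand), the pore subunit of a vascular ATP-sensitive potassium channel (Kcnj8, ENSRNOG00000013463, chr4:176782498-176789304, minus strand), the adhesion protein vitronectin (Vtn, ENSRNOG00000010031, chr10:65767053-65771038, plus strand) and the Notch3 receptor (Notch3, ENSRNOG00000004346, chr7:14138495-14189688, minus strand). The 4 contractile genes encode smooth muscle actin (Acta2, ENSRNOG00000058039, chr1:252537615-252550394, minus strand), smooth muscle myosin heavy chain (Myh11, ENSRNOG00000057880, chr10:764421-859184, plus strand), and the actin-binding proteins transgelin (Tagln, ENSRNOG00000017628, chr8:50222896-50231357, minus strand) and calponin (Cnn1, ENSRNOG00000027736, chr8:23113048-23121761, plus strand). Positions are those of the tables. The submitters' processing notes name mRatBN7.2, but chromosome 1 positions in the tables reach 282724300, past the end of that chromosome in mRatBN7.2, so the positions are of another build, which the tables do not name. Tagln overlaps Sidt2 on the same strand, a gene with a mean scaled coverage of 39.8, and Acta2 has near-identical paralogs such as Actg2 and Acta1, so for these 2 members reads could be shared with another gene.

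Contractile genes are known targets of serum response factor, which binds the CArG box, and the region before the start of Acta2 is shown because it holds this element. RefSeq promoters (build GRCr8) matched 6 of the 9 members: Rgs5, Kcnj8, Vtn, Notch3, Acta2 and Cnn1. In the 250 bases before the start, 0 of the 6 held an exact CArG box, which 1.5% of 33469 promoters of the same length held. The search was then widened to boxes with 1 G or C among the 6 inner A or T bases, a choice made after the exact search found none. Acta2 held 2 such boxes and the other 5 members held 0, while 8.08% of all promoters held at least 1 and 0.693% held at least 2. The box reads alike on both strands, and the match is a description of these letters only. The 160 bases before the start of Acta2 lie at chr1:241172504-241172663 of GRCr8, minus strand, and the capitals mark the boxes, which begin 134 and 84 bases before the start.
Acta2: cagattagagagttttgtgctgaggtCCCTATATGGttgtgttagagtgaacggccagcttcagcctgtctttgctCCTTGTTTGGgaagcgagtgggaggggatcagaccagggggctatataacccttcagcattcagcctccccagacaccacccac

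All 9 genes were detected in all 24 libraries and had a mean scaled coverage of at least 1, the filter that kept 15644 genes for testing. On the reference rows, Tagln had the highest level in Control, with a mean of 59.9 ± 18.3 (SD, n = 8). It was followed by Vtn with 39.8 ± 8.94, Acta2 with 37.9 ± 11.9 and Rgs5 with 33.4 ± 8.42. Myh11 (18.8 ± 6.59), Pdgfrb (13.0 ± 2.40) and Notch3 (8.29 ± 2.16) came next. Kcnj8 (3.78 ± 0.439) and Cnn1 (2.09 ± 1.44) were the lowest, at the 18.9th and 9.52nd percentile of the genes tested, and Tagln was at the 83.8th. Ranges of neighbours in this order overlapped for all 8 neighbouring pairs. Within each Control library, however, Tagln was above Vtn and Rgs5 above Myh11, and Pdgfrb, Notch3, Kcnj8 and Cnn1 stood in this order. The order of Vtn with Acta2, Acta2 with Rgs5 and Myh11 with Pdgfrb differed between libraries. The place of Rgs5 holds for its reference row. Loci assembled over it on its strand had a Control median scaled coverage of 98.4, against 53.2 over Tagln.

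**Figure D1:**
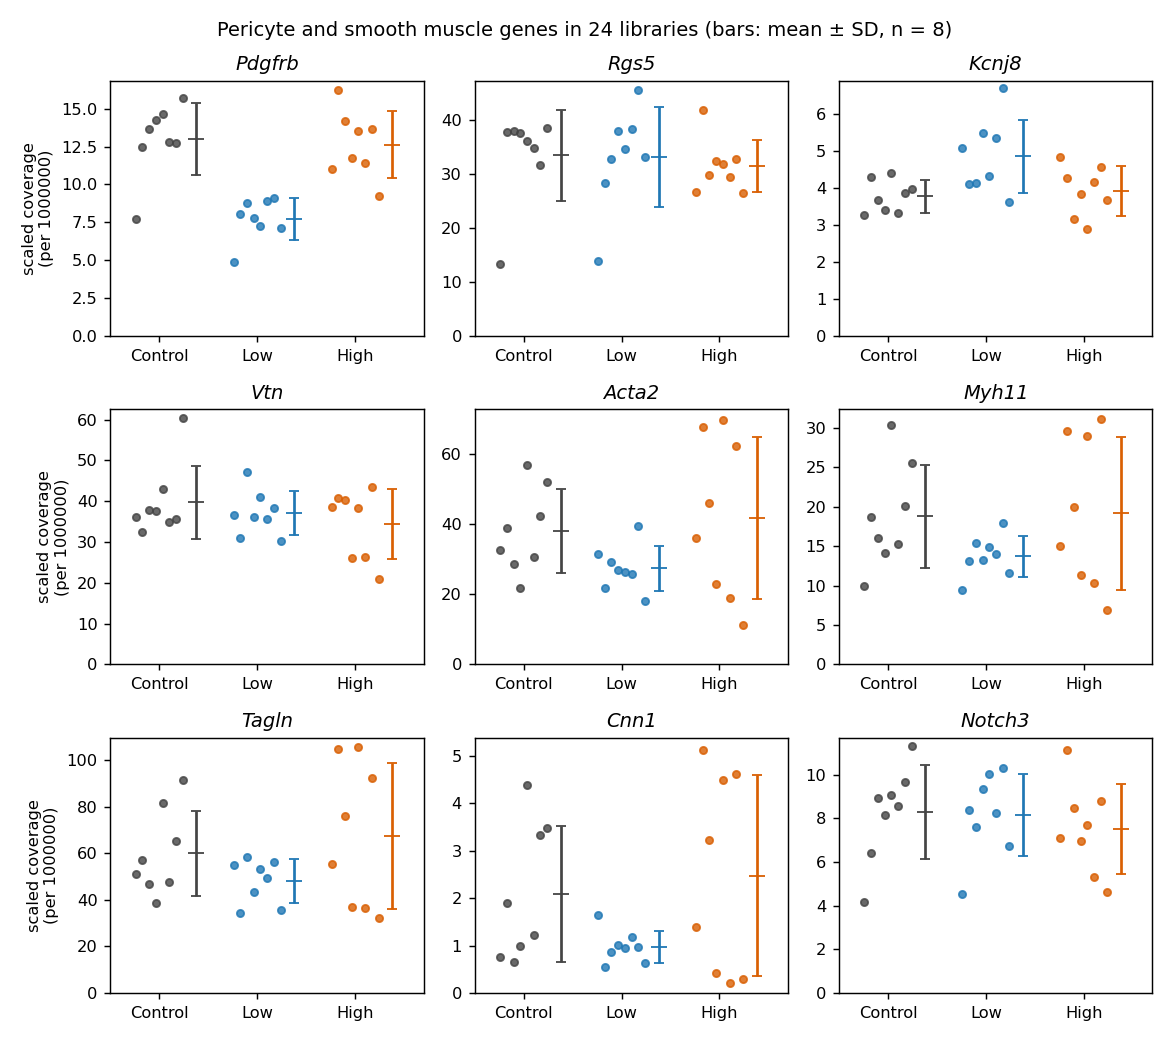
Scaled coverage (per 1000000 of reference coverage) of the 9 genes in Control, Low and High, with 1 point per library in order of replicate number and a bar for the mean ± SD of 8 libraries. The Low points of Pdgfrb (4.85 to 9.11) lie below all High points (9.24 to 16.3), and the High points of the contractile genes are spread widely, from 11.3 to 69.7 for Acta2.

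The question of the design is whether either dose changed the cortex relative to Control. The groups were compared with limma on log2(scaled coverage + 1), on which changes of weakly expressed genes come out too small, with all 24 libraries in 1 fit, two-sided p and Benjamini-Hochberg adjustment over the 15644 genes. Between Low and Control, 1 of the 9 members passed an adjusted p under 0.05, Pdgfrb, which was lower in Low, and 6.11% of all genes tested passed (4.88% lower). Between High and Control, 0 of the 9 passed, as did 0% of all genes, and 0 of the 9 had an unadjusted p under 0.05 against 2.11% of all genes. An exact Wilcoxon rank-sum test of High against Control also passed 0 genes after adjustment, with 887 at an unadjusted p under 0.05. Between Low and High, 1 of the 9 passed, again Pdgfrb and lower in Low, against 11.7% of all genes (6.39% lower). The median log2 difference of all genes tested was 0.062 for Low minus Control, -0.031 for High minus Control and 0.091 for Low minus High. The comparisons share samples, so the result for Pdgfrb against Control and against High rests on the same 8 Low libraries.

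**Figure D2:**
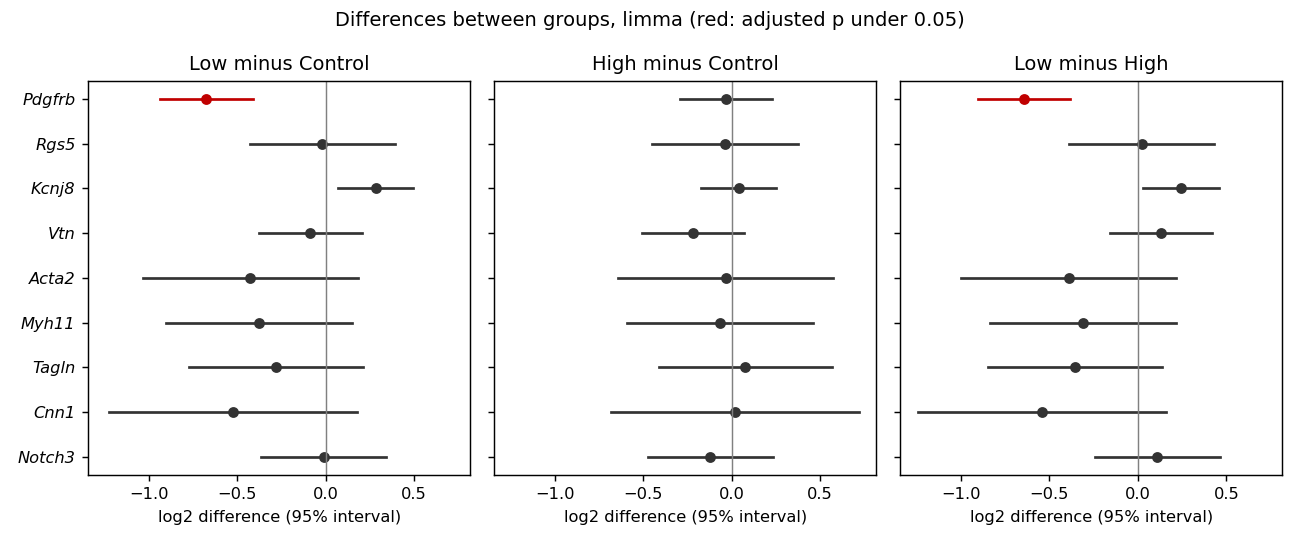
Log2 difference of each gene with its 95% interval from limma for Low minus Control, High minus Control and Low minus High (8 libraries per group). Red marks an adjusted p under 0.05, which Pdgfrb alone of the 9 has, at -0.68 and -0.64, and the intervals of the contractile genes are the widest.

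Pdgfrb, the receptor on which pericyte recruitment depends, was lower in Low on the coverage scale. Scaled coverage was 7.71 to 15.7 in the Control libraries (median 13.2), 4.85 to 9.11 in the Low libraries (median 7.92) and 9.24 to 16.3 in the High libraries (median 12.6). Every Low library was below every High library, a separation that 2.26% of all genes showed in either direction. No member separated Low from Control or High from Control, as 1.53% and 0.00639% of all genes did. Low and Control overlapped through Control replicate 49 (7.71), since the other 7 Control libraries ranged from 12.4 to 15.7. The log2 difference between Low and Control was -0.68 (SE 0.127, 95% interval -0.94 to -0.41, limma adjusted p = 0.000902), a call that the exact Wilcoxon rank-sum test did not make (adjusted p = 0.0829). Against High it was -0.64 (SE 0.127, limma adjusted p = 0.00136), and High minus Control was -0.032 (95% interval -0.29 to 0.23). With replicates 49 and 57 left out, a choice made after seeing the data, Low minus Control was -0.69 (limma adjusted p = 1.02e-05).

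The deposited FPKM gave a smaller difference for Pdgfrb, and the relation of the columns differed between the groups. In a gene whose reads all go to 1 transcript, coverage and FPKM of a library stand in a common ratio. Relative to that ratio, Pdgfrb had a coverage of 0.645 to 0.661 in Low, below all values in Control (0.733 to 0.957) and High (0.802 to 0.962). When FPKM was scaled as coverage was, the medians of the Control, Low and High libraries were 15.2, 11.1 and 13.1. On that measure, chosen after seeing the data, Low minus Control was -0.38 (limma adjusted p = 0.0703) and Low minus High was -0.28 (limma adjusted p = 0.164). On FPKM as deposited the difference from Control had the opposite sign, 0.12 (limma adjusted p = 0.286), where the median over all genes was 0.53. Loci assembled over Pdgfrb on its strand had a median scaled coverage of 11.4 in Control and 10.7 in High. The part of the table type in the lower coverage of Pdgfrb cannot be told apart from that of the exposure.

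Rgs5, a marker of brain pericytes, showed no difference in coverage that passed the test, but was the member whose readouts differed most. Its scaled coverage was 13.3 to 38.4 in the Control libraries (median 36.8), 13.9 to 45.5 in the Low libraries (median 33.8) and 26.5 to 41.8 in the High libraries (median 30.8). The ranges overlapped, and replicates 49 and 57 were the lowest by a wide margin. The difference of Low from Control was -0.019 (95% interval -0.43 to 0.39, limma adjusted p = 0.969). Scaled FPKM was 14.3 to 47.4 in the Control libraries (median 35.8), 43.9 to 127 in the Low libraries (median 100.3) and 25.5 to 46.3 in the High libraries (median 31.7). Here 7 of the 8 Low libraries were above all Control and High libraries, and replicate 57 was the exception. Low minus Control was 1.44 on log2(scaled FPKM + 1) (SE 0.203, limma adjusted p = 9.92e-06), and Low minus High was 1.48 (limma adjusted p = 5.45e-06). The coverage of Rgs5 relative to the common ratio was 0.294 to 0.332 in Low, 0.750 to 0.992 in Control and 0.778 to 0.989 in High. Loci assembled over Rgs5 on its strand carried 2.58 to 5.62 times the coverage of the reference gene in Control and 2.68 to 3.65 times in High, with a median scaled coverage of 98.4 and 96.8. A level of Rgs5 in Low relative to the other groups is therefore not given by these tables without a choice of readout.

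**Figure D3:**
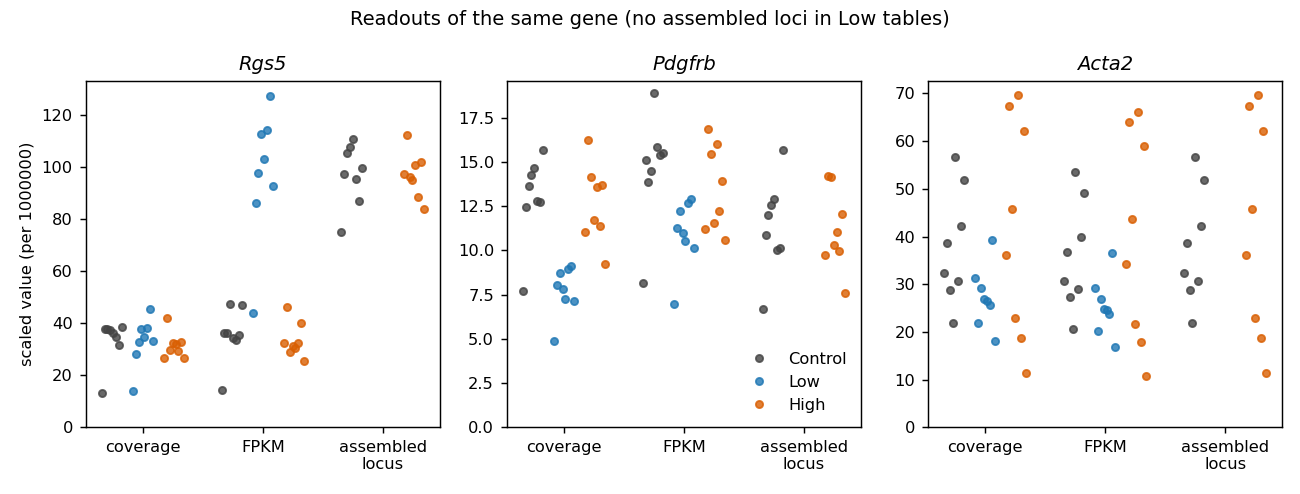
Scaled coverage, scaled FPKM and scaled coverage of assembled loci (each per 1000000 of the reference sum of that column or of coverage) for Rgs5, Pdgfrb and Acta2, with 1 point per library. In Low, Rgs5 has a median of 33.8 by coverage and 100.3 by FPKM, while the readouts of Acta2 keep the same pattern, and Low tables hold no assembled loci.

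Kcnj8 encodes the Kir6.1 pore of the channel that, when open, relaxes mural cells. Its scaled coverage was 3.26 to 4.41 in the Control libraries (median 3.78), 3.63 to 6.71 in the Low libraries (median 4.71) and 2.90 to 4.83 in the High libraries (median 4.00). The groups overlapped, with 4 Low libraries above all libraries of the other groups. The Low minus Control difference of Kcnj8 was 0.28 (SE 0.103, 95% interval 0.070 to 0.50), with an unadjusted p of 0.0114 by limma and an adjusted p of 0.120. Low minus High was 0.24 (limma adjusted p = 0.120), and High minus Control was 0.038 (95% interval -0.17 to 0.25). Coverage and FPKM stood in the common ratio for Kcnj8 in all 3 groups to within 2%. Its loci assembled in Control and High had the coverage of the reference gene.

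Vtn, a secreted adhesion protein that brain pericytes express, had a scaled coverage of 32.5 to 60.5 in the Control libraries (median 36.8), 30.3 to 47.1 in the Low libraries (median 36.5) and 21.1 to 43.6 in the High libraries (median 38.5). The ranges overlapped, and the High group held the lowest libraries (replicates 68, 70 and 72). High minus Control was -0.22 (95% interval -0.51 to 0.070, limma adjusted p = 0.999), and Low minus Control was -0.087 (limma adjusted p = 0.775). Notch3, the receptor of the arteriolar Notch pathway, had a scaled coverage of 4.19 to 11.3 in the Control libraries (median 8.76), 4.55 to 10.3 in the Low libraries (median 8.30) and 4.61 to 11.1 in the High libraries (median 7.41). The groups covered nearly the same range, and replicates 49 and 57 were again the lowest of their groups. Its difference between Low and Control was -0.012 (95% interval -0.37 to 0.34), and High minus Control was -0.12 (95% interval -0.48 to 0.23, limma adjusted p = 0.999).

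The 4 contractile genes had lower means in Low than in Control and in High, and none of these differences passed the test. Acta2, the actin of the contractile apparatus, had a scaled coverage of 21.8 to 56.7 in the Control libraries (median 35.6), 18.1 to 39.3 in the Low libraries (median 26.6) and 11.3 to 69.7 in the High libraries (median 41.0). The Low range lay mostly within the other ranges, and High reached both the lowest and the highest value. For Acta2, Low minus Control was -0.43 (SE 0.294, 95% interval -1.03 to 0.18, limma adjusted p = 0.459), and High minus Control was -0.035 (95% interval -0.64 to 0.57). Myh11, the myosin motor that acts on this actin, was 9.95 to 30.5 in the Control libraries (median 17.4), 9.40 to 18.0 in the Low libraries (median 13.6) and 6.92 to 31.2 in the High libraries (median 17.5). Its groups overlapped, with the same wide High range as Acta2. For Myh11, Low minus Control was -0.38 (95% interval -0.90 to 0.15, limma adjusted p = 0.450).

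Tagln, which binds and stabilises actin filaments, was 38.4 to 91.4 in the Control libraries (median 54.1), 34.3 to 58.5 in the Low libraries (median 51.2) and 32.1 to 105.8 in the High libraries (median 65.6). All groups overlapped at their lower ends, and the upper ends differed. For Tagln, Low minus Control was -0.28 (95% interval -0.77 to 0.21, limma adjusted p = 0.557). Relative to the common ratio, Tagln had a coverage of 0.831 to 0.833 in Low, below Control (0.895 to 0.935) and High (0.886 to 0.922). By scaled FPKM, the Tagln medians of Control, Low and High were 55.8, 57.0 and 69.4, and the means were 62.4, 53.6 and 70.7. Exposure and table type cannot be told apart here either. Cnn1, an actin-binding brake on myosin and the lowest of the 9 genes, was 0.662 to 4.38 in the Control libraries (median 1.55), 0.554 to 1.64 in the Low libraries (median 0.953) and 0.219 to 5.13 in the High libraries (median 2.30). Its High libraries ranged over a factor of 23.4, the largest within any group for the 9 genes. Low minus Control was -0.53 (SE 0.340, 95% interval -1.23 to 0.18, limma adjusted p = 0.430). On FPKM as deposited, where the median of all genes was 0.53, the Low minus Control difference of Acta2 (0.068), Myh11 (0.13) and Tagln (0.35) had the opposite sign.

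The contractile genes varied widely within groups. The coefficient of variation of Acta2 was 31.5% among Control, 23.2% among Low and 55.1% among High libraries. For Myh11 it was 35.1%, 18.8% and 50.4%, and for Tagln it was 30.6%, 19.5% and 46.4%. Cnn1 had 68.9%, 34.5% and 85.8%. The order was the same for all 4 genes, with the widest spread in High and the narrowest in Low, and it was not tested. In High, replicates 66, 69 and 71 were the 3 highest and replicates 68, 70 and 72 the 3 lowest for all 4 genes. In Control, replicates 53 and 56 were the highest for all 4. Their summed level was 172.97 in replicate 53 and 172.43 in replicate 56, and 75.3 to 131 in the other 6.

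Markers of fibroblasts and meninges moved with the contractile genes. Of the 10 genes of this list (such as Col1a1, Col3a1, Dcn and Lum) 9 were found and tested. Their summed scaled coverage was 123 to 307 for Control, 91.2 to 230 for Low and 75.2 to 243 for High. Over the 24 libraries with group means removed, its log2 sum and that of the 4 contractile genes had a Pearson's r of 0.82 and a rho of 0.80 (r 0.80 without the 2 libraries farthest in the fibroblast sum), a description over libraries that share their depth scaling. All 9 fibroblast genes had a lower mean in Low than in Control (median log2 difference -0.46). Of them, 4 had an unadjusted limma p under 0.05, against 8.73% of all genes in that direction, and 0 an adjusted one. With median-of-ratios scaling 2 passed, and 1 each with scaling without mitochondrial genes and with scaled FPKM. The direction was the same for all 9 with each other scaling of coverage. For High minus Control the log2 difference was below 0 for all 9 (median -0.25), with Dcn at -0.0044, for 8 with median-of-ratios scaling or scaling without mitochondrial genes and for 5 without scaling, and 0 had an unadjusted p under 0.05. Blood genes (6 of 7 found) had a sum of 774 to 1707 for Control, 470 to 1407 for Low and 566 to 1800 for High, with an r of 0.51 to the contractile sum. All 6 blood genes had a log2 difference below 0 for Low minus Control (median -0.25), and 0 passed. Striatal neuron genes had a sum of 173 to 1433 in High and an r of 0.40, and all 6 had a difference below 0 for Low minus Control (median -0.60), with 0 passing. All 6 were also below 0 for High minus Control (median -0.35), again with 0 passing. The part of tissue sampling in the spread of the contractile genes was not tested.

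**Figure D4:**
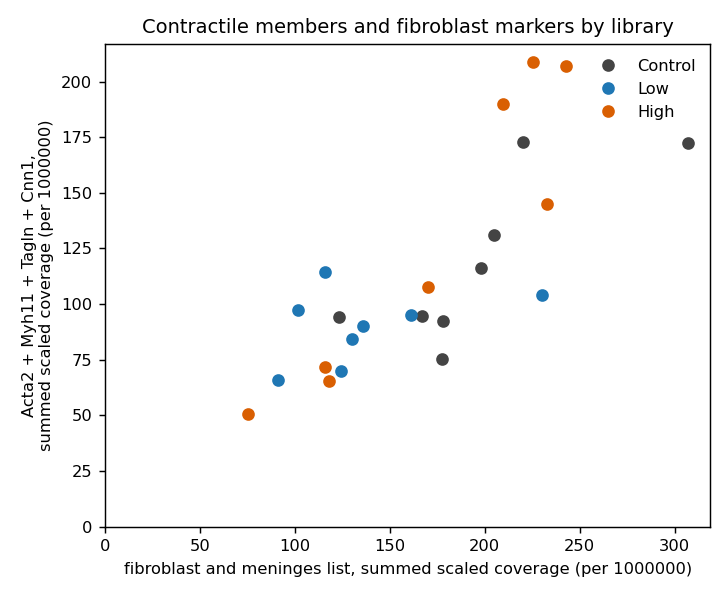
Summed scaled coverage (per 1000000) of Acta2, Myh11, Tagln and Cnn1 against that of 9 fibroblast and meninges genes, with 1 point per library coloured by group. Libraries high in one sum are high in the other (r = 0.82 on log2 values with group means removed), and High libraries lie at both ends, from 50.7 to 209.

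Among themselves, Acta2, Tagln and Cnn1 varied together most closely and Kcnj8 least with the others. With group means removed, the highest correlations over the 24 libraries were between contractile genes. The r was 0.96 for Acta2 with Tagln, 0.93 for Tagln with Cnn1, 0.91 for Acta2 with Cnn1 and 0.90 for Acta2 with Myh11. Myh11 had 0.87 with Tagln and with Cnn1, slightly below Pdgfrb with Notch3 and with Rgs5. Without replicates 49 and 57, Myh11 had 0.95 with Tagln and 0.93 with Cnn1. Vtn varied with the contractile genes (0.84 with Tagln and 0.80 with Acta2) more than with Notch3 (0.60), Pdgfrb (0.52) or Rgs5 (0.20). Without replicates 49 and 57 it had 0.75 with Notch3, 0.72 with Pdgfrb and 0.33 with Rgs5, against 0.73 to 0.85 with the contractile genes. Pdgfrb varied with Notch3 (0.88) and Rgs5 (0.88). Those values leaned on replicates 49 and 57, without which they were 0.77 and 0.69, and Rgs5 with Notch3 went from 0.79 to 0.58. Myh11 also varied with Pdgfrb (0.76) and Notch3 (0.78). Without those replicates, Pdgfrb had an r of 0.67 to 0.78 with the contractile genes and Notch3 one of 0.70 to 0.76, so they were not set apart from them. Kcnj8 had an r of at most 0.25 with any other member, and of 0.41 with Rgs5 without replicates 49 and 57. These are descriptions over libraries that share depth scaling and, for long genes, the relation to gene length given above.

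**Figure D5:**
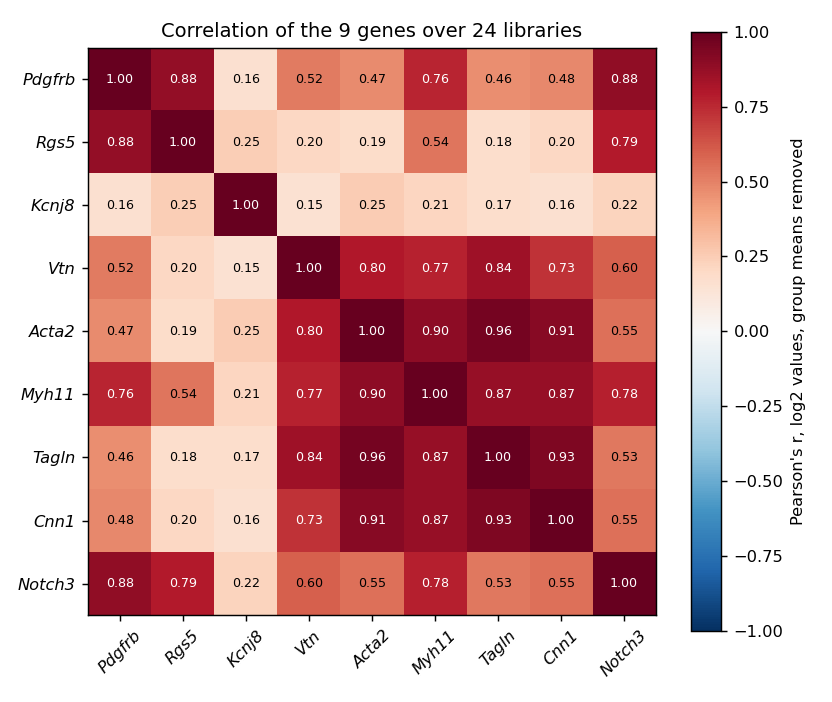
Pearson's r between log2 scaled coverage of each pair of the 9 genes over 24 libraries after the group means were removed, from blue (-1) to red (1). The contractile genes and Vtn have r of 0.73 to 0.96, Pdgfrb, Rgs5 and Notch3 of 0.79 to 0.88 (0.58 to 0.77 without replicates 49 and 57), Myh11 reaches 0.76 with Pdgfrb and 0.78 with Notch3, and the row of Kcnj8 is pale.

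The genes most like each member on the same measure were listed by Pearson's r over the 24 libraries. For Acta2 they were Myl9 (0.93), Cavin1 (0.89) and Tpm2 (0.88), and for Tagln the same 3 at 0.96, 0.93 and 0.93. Myl9 encodes the regulatory light chain of smooth muscle myosin and Tpm2 a tropomyosin. For Myh11 they were Mylk (0.91), the myosin light chain kinase, Flna (0.91) and Eln (0.90), the elastin of arterial walls. Cnn1 was closest to Actg2 (0.91), AC115473.1 (0.90) and Des (0.89), where Des encodes desmin. Vtn was closest to Ptgds (0.92), Bgn (0.91) and Fmod (0.90), of which Bgn and Fmod encode matrix proteoglycans. Pdgfrb was closest to Col12a1, Lamc3 and Cx3cr1, all at 0.92, and Notch3 to Lama5 (0.91), Cx3cr1 (0.89) and Lamc3 (0.88), where Lamc3 and Lama5 encode laminin chains and Cx3cr1 a microglial receptor. Rgs5 was closest to Tns1 (0.95), Fyco1 (0.94) and Zbtb40 (0.93). For Kcnj8, Plk5 (0.73) and Shld1 (0.69) were among the closest. All these values include replicates 49 and 57, in which the longest members, Myh11, Notch3, Pdgfrb and Rgs5, were lowest, and were not computed without them. How much of the likeness of those members reflects the relation to gene length given above was not tested.

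Other genes of the same cells and pathways were read from lists. Of 19 further pericyte markers, 17 were tested, and 0 passed the limma test in any of the 3 comparisons (1 in Low against High with scaling without mitochondrial genes). Their median log2 difference was 0.11 for Low minus Control and -0.039 for High minus Control, with Atp13a5 highest (0.27, limma adjusted p = 0.116) and Tbx18 lowest (-0.27) in Low. Of 28 further contractile and smooth muscle genes, 21 were tested and 0 passed in any comparison (1 passed in Low against Control and 1 in Low against High with median-of-ratios scaling, with scaling without mitochondrial genes and with scaled FPKM). Their median was -0.10 for Low minus Control and -0.021 for High minus Control, from -0.63 for Actg2, an enteric-type smooth muscle actin, to 0.26 for Susd5. Their summed level had an r of 0.78 with that of the 4 contractile members.

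The partners of Pdgfrb showed no change against Control that passed the test. Of 5 PDGF ligands and receptors 4 were tested, with a median of 0.046 in Low and -0.049 in High. Pdgfb, the ligand that endothelial cells secrete, differed between Low and Control by 0.25 (limma adjusted p = 0.192). Between Low and High 1 gene passed, Pdgfa, higher in Low by 0.19 (limma adjusted p = 0.0166), and it no longer passed with median-of-ratios scaling (0.096, limma adjusted p = 0.394). Without any scaling its difference was -0.022, where the median of all genes was -0.12. All 16 Notch ligands, receptors and targets were tested and 0 passed in any comparison (1 in Low against High with median-of-ratios scaling). Their median was 0.093 in Low and -0.041 in High against Control, and the highest in Low was Hes1 (0.28, limma adjusted p = 0.324), a Notch target. The other KATP channel genes, Kcnj11, Abcc8 and Abcc9, had differences of 0.13 to 0.22 between Low and Control, none of which passed. Abcc9, whose product pairs with that of Kcnj8 in vessels, had 0.13 (limma adjusted p = 0.675). Of 7 vitronectin receptors and partners 4 were tested and 0 passed, with Itgb1 at 0.081 in Low and Itgav at -0.36 in High. With scaled FPKM, 1 of them passed in Low against Control and 1 in Low against High.

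Of 20 vasoactive receptors and genes of myosin light chain control, 15 were tested. None passed against Control (1 in Low against Control with scaled FPKM). Between Low and High 3 passed, all higher in Low, against 5.30% of all genes in that direction. They were Rock2, a kinase that raises myosin phosphorylation (0.41, limma adjusted p = 0.0109), Ppp1r12a, the myosin phosphatase targeting subunit (0.23, limma adjusted p = 0.0313), and Rgs2, a relative of Rgs5 (0.22, limma adjusted p = 0.0463). Adra1d had the highest difference of the list, 0.77 for Low minus High and 0.45 for Low minus Control, and did not pass. The lowest were Ednrb (-0.091) for Low minus High and Cacna1c (-0.23) for Low minus Control. The number of all genes higher in Low rests on single libraries: it was 829, but 1340 to 1602 without replicate 49, 57 or 61, 387 to 534 without replicate 59, 60, 62, 65 or 67, and 3343 without replicates 49 and 57 together. With median-of-ratios scaling Ppp1r12a (0.13) and Rgs2 (0.12) did not pass. Without scaling none of the 3 passed, and Rock2 also lost its call with the exact Wilcoxon test (adjusted p = 0.0514). None of the 3 passed with libraries 56 to 62 as a covariate either. That covariate marks Control replicate 56, Low replicates 57 to 62 and no High library, so it largely coincides with the Low group. With it, the number of all genes higher in Low fell from 829 to 31, so the lost calls say little about these 3 genes. Neurons and glia also express these genes. Of 12 endothelial genes 8 were tested, and 0 passed against Control. Between Low and High 1 passed, Slco1a4, an organic anion transporter of brain endothelium (0.33 higher in Low, limma adjusted p = 0.0235), which did not pass with median-of-ratios scaling (0.24, limma adjusted p = 0.0988). The endothelial sum was 141 to 244 for Control, 170.0 to 224 for Low and 156 to 192 for High, and it had an r of 0.79 with the sum of Pdgfrb, Rgs5, Kcnj8 and Vtn (0.66 without the 2 libraries farthest in the endothelial sum). That sum had a similar r with fibroblasts and meninges (0.80), vitronectin partners (0.87), astrocytes (0.74) and microglia (0.73).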

How the data were processed

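The authors trimmed, aligned and quantified the reads. The submitters' processing notes list FastQC, Trimmomatic, TopHat2, StringTie and mRatBN7.2, without versions or options. The deposited coverage is a signal, the mean read depth per base of each gene, and was left unscaled. FPKM, as deposited by the authors, takes transcript length and the sequenced bases of a library into account, and served as an alternative. The TPM column was not used. Rows with a rat Ensembl identifier were kept, repeated identifiers were summed, and coverage was divided by its sum over these genes then multiplied by 1000000. A mean of 1 or more across the 24 libraries was required for a test. The fit used R 4.3.3 with limma 3.58.1 (trend and robust options) for log2(value + 1) in all groups together, two-sided, with Benjamini-Hochberg adjustment over 15644 genes and a threshold of 0.05. Intervals are 95%.

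The limma step was tested on simulated data with known changes. Lists were described by counts and medians, without set tests, and correlations carry no p. Tables, ranks and plots came from pandas 2.3.3, numpy 2.4.6, scipy 1.17.1 and matplotlib 3.10.9 under Python 3.11.15. The members, the lists and the split at libraries 56 to 62 were chosen with earlier results of these data known. Named genes are the members, the 3 genes most like each, list genes that passed the test and some of the extremes of the pathway lists. Of the genes most like a member, 1 is not reported here. Some list genes (such as Pdgfb, Itgb1, Abcc9, Adra1d and examples of lists) were named after their values were seen. The limma p-values set a difference between groups against the spread between rats within groups, pooled over the 24 libraries and moderated across genes. In comparisons with Low they do not separate exposure from table type.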

Additional observations from a re-analysis of the deposited data

Results flagged for a closer look

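In 27 sets of 8 values, 1 per member and group, a library far from the others was looked for with Dixon's criterion, and 5 sets held one. About 1.35 would be expected for independent sets of normal values. The members share the same rats, so the 5 sets cannot be read as an excess over that number. Control replicate 49 stood below the other Control libraries for Pdgfrb (7.71, others 12.4 to 15.7) and for Rgs5 (13.3, others 31.5 to 38.4). Low replicate 57 stood below the other Low libraries for Pdgfrb (4.85, others 7.13 to 9.11). High replicate 66 stood above the other High libraries for Rgs5 (41.8, others 26.5 to 32.8), and Control replicate 56 above the other Control libraries for Vtn (60.5, others 32.5 to 43.1). Replicate 56 is also the library with 159573 assembled loci, and a relation of its levels to that number was not tested. The scaled coverage of Pdgfrb differed between the 2 dose groups, by -0.64 on log2(scaled coverage + 1) for Low minus High (limma adjusted p = 0.00136), with every Low library below every High library. With scaled FPKM it was -0.28 (limma adjusted p = 0.164) and with FPKM as deposited 0.17, and exposure and table type cannot be told apart.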

How the results depend on the processing

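The members called were 1, 0 and 1 for Low against Control, High against Control and Low against High, and the count stayed within 1.5 times that under the other settings except these. With FPKM as deposited 4 members passed in Low against Control and 4 in Low against High, with median-of-ratios scaling of FPKM 2 and 2, and with the exact Wilcoxon test 0 in Low against Control. Pdgfrb then had an adjusted Wilcoxon p of 0.0829. With FPKM divided by its sum the count was equal in both comparisons of Low but the member was another, Rgs5 (limma adjusted p = 9.92e-06 and 5.45e-06) in place of Pdgfrb (0.0703 and 0.164). With each library left out in turn, Pdgfrb kept its call (-0.77 to -0.60 against Control, -0.70 to -0.56 against High). Without replicates 49 and 57, High against Control gave 7 genes higher and 383 lower of all genes, and 0 members. The cause of these changes was not tested.

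Most reversals were of differences near 0. With FPKM as deposited, where the median of all genes was 0.53 for Low minus Control and 0.52 for Low minus High, Low minus Control became positive for Pdgfrb (0.12), Rgs5 (1.92), Vtn (0.41), Acta2 (0.068), Myh11 (0.13), Tagln (0.35) and Notch3 (0.38), and Low minus High for Pdgfrb (0.17), Acta2 (0.044), Myh11 (0.14) and Tagln (0.22). High minus Control became 0.00023 for Rgs5 and 0.023 for Acta2. Rgs5 in Low minus Control was 1.44 with FPKM divided by its sum, 1.37 with median-of-ratios scaling of FPKM, 0.065 with libraries 56 to 62 as a covariate and 0.0054 with scaling without mitochondrial genes, where Notch3 was 0.011. Without scaling, where the median of all genes was 0.14, High minus Control was 0.14 for Pdgfrb, Rgs5 and Acta2, 0.11 for Myh11 and 0.043 for Notch3, and Low minus High, with a median of -0.12, was -0.20 for Rgs5, -0.081 for Vtn and -0.087 for Notch3. With median-of-ratios scaling, High minus Control was 0.0032 for Pdgfrb and 0.00059 for Acta2, and Low minus High was -0.073 for Rgs5. Low minus High was -0.13 for Vtn with the covariate and -0.021 for Notch3 with median-of-ratios scaling of FPKM. High minus Control of Cnn1 was -0.19 with a pseudocount of 0.1 and -0.079 without replicates 49 and 57. With 1 library left out, signs turned for High minus Control of Acta2 (-0.17 to 0.19), Cnn1 (-0.14 to 0.19), Myh11 (-0.19 to 0.10), Tagln (-0.036 to 0.20) and Pdgfrb (-0.13 to 0.025), for Low minus Control of Rgs5 (-0.19 to 0.14), Notch3 (-0.13 to 0.086) and Vtn (-0.14 to 0.0011), and for Low minus High of Rgs5 (-0.053 to 0.18). Kcnj8 and Cnn1 have no value at a minimum mean of 5.

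No paired analysis was possible because the groups share no replicate numbers. FPKM divided by its sum, its median-of-ratios scaling and leaving out replicates 49 and 57 were chosen after seeing the data. The tables hold no read counts, so what depth limits for low genes such as Cnn1 is unknown.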
